A study of Mus musculus with 15 samples.

Results

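The comparison covered here is the embryonic mouse lens at E16.5 against E12.5 (E, embryonic day), with E14.5 as the midpoint. It rests on 3 libraries at E16.5 and 3 at E12.5 out of the 15 RNA-seq libraries of the series, chosen by the stage given in their labels, and 3 libraries at E14.5 place each change before or after the midpoint. All embryos were wild type and of the C57BL/6NTac strain, and no group carried a treatment. Each lens library was made from total RNA of micro-dissected lenses, with 29 lenses pooled for each E12.5 replicate, 18 for E14.5 and 17 for E16.5, and the labels call the 3 libraries of a stage biological replicates. The other 6 libraries, 3 of E10.5 lens and 3 of whole embryo, entered the fit to estimate the spread between replicates. They also counted in the filter that set which genes were tested, and entered the alternative scalings. Whole lenses were pooled, so epithelium, fibres and any tissue left attached to the lens were measured together. Throughout, fewer cells of a type and less RNA per cell cannot be told apart.

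The lens is built from a front layer of dividing epithelial cells and a mass of fibre cells behind it. Primary fibres arise when the cells at the back of the lens vesicle elongate and fill its cavity. Later fibres are added from the equator of the epithelium, and all fibres stop dividing, make very large amounts of crystallins, remodel their membrane and cytoskeleton, and in the end lose their nucleus and other organelles. The stages compared lie along this course.

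Values are FPKM (a transcript level scaled for length and library), added up over all transcripts that carry a gene symbol, and the read depth behind them is unknown. Fold changes are differences of log2(FPKM + 1), given as estimate ± SE, which is too small a change for genes near 0. The threshold for a call was an adjusted p of 0.05 (limma, Benjamini-Hochberg, 14532 genes). Across genes, the log2 values of 2 libraries correlated with r from 0.980 to 0.992 within a stage and from 0.897 to 0.987 between stages. Crystallins took 10.48% ± 2.89 of the summed FPKM at E12.5, then 26.9% ± 2.78 at E14.5 and finally 32.0% ± 4.76 at E16.5 (SD, n = 3). Part of the last 2 shares is missing, since Cryaa is listed at 0 in 2 libraries of each of these stages and Cryba1 in 2 libraries at E16.5. Both genes were left out of the tests, as was Nufip2. In the whole-embryo libraries, crystallins took 0.00109% of the summed FPKM on average. Of 10 tested lens markers, 8 were called higher at E16.5 and none lower, or 4 and 2 with quantile normalization. These calls compare stages and are no check of lens identity.

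The E12.5 libraries differed among themselves along the direction of the comparison. Replicate 1 was the highest of the 3 for 85.2% of the genes that were at least 2-fold lower at E16.5, against 39.5% of all genes tested. It was the lowest for 67.8% of the genes that were at least 2-fold higher at E16.5, against 36.1% of all genes. Its summed FPKM of periocular mesenchyme markers, 1206, also stood above the 493 and 356 of the other libraries of its stage. The part of this difference in the results was not tested. Without this library, 874 genes were called at least 2-fold higher and 1028 lower.

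From E12.5 to E16.5, 3754 genes (25.8% of those tested) were called higher and 3883 (26.7%) lower, 52.6% in all. With a 2-fold minimum, 962 genes (6.62%) were higher and 1303 (8.97%) lower. When crystallins were dropped and the rest of each library was brought to 1 common total (the crystallin-free scaling below), the median of all genes shifted by -0.27 on the log2 scale and the 2-fold counts became 647 higher and 1877 lower. The direction of small changes therefore depends on the scaling, and such cases are named below. Abundant genes leaned upward. Of 99 genes with a mean of 1000 FPKM or more, 36.4% were at least 2-fold higher and 2.02% lower, whereas of 3622 genes with a mean of 1 to 10 FPKM, 7.32% were higher and 20.7% lower. Part of this contrast is built in, since the change itself enters the mean that sets a gene's band.

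Most of the change came before E14.5. Between E12.5 and E14.5, 594 genes (4.09%) were at least 2-fold higher and 1131 (7.78%) lower, and between E14.5 and E16.5 the counts were 233 (1.6%) and 42 (0.289%), 1.89% in all. Without the fold minimum, 5.97% of genes were called higher and 4.03% lower in that second step. Among the genes that fell at least 2-fold over the whole interval, the median gene had made 92.1% of its log2 change by E14.5, and among those that rose it had made 72.4%. On the linear FPKM scale these medians were 96% and 59%. A contrast of E14.5 with the mean of both ends marked 397 of the 962 rises as early steps and 62 as late steps, and left 503 undecided. It marked 644 of the 1303 falls as early and 9 as late. In simulated data this contrast recovered 62% of 2-fold steps at 10 FPKM or more and 8% at 1 to 10 FPKM. An undecided gene, above all a low one, may therefore still have changed in 1 step. Over all genes, 6.68% deviated upward at E14.5 and 9.34% downward. Leaving out E14.5 replicate 2 lowered the early rises to 249 and the early falls to 397. Because a gene that reaches 0 by E14.5 cannot fall further, an early fall of a low gene says little about its course.

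**Figure D1:**
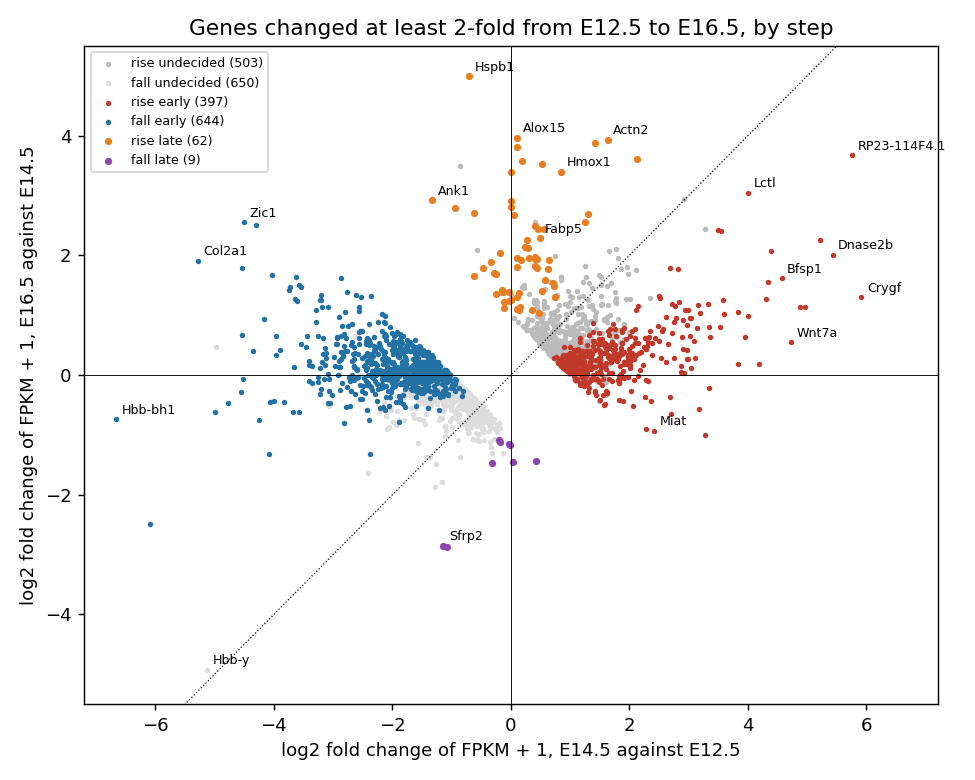
Each point is 1 of the genes changed at least 2-fold from E12.5 to E16.5, with its log2 fold change of FPKM + 1 from E12.5 to E14.5 on the horizontal axis and from E14.5 to E16.5 on the vertical axis. Colours mark early, late and undecided courses with their gene counts, and the dotted line marks equal steps. Rises that lie near the vertical axis, such as Hspb1, Alox15 and Hmox1, came after E14.5, whereas most falls lie along the horizontal axis on the left.

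The highest rise belonged to RP23-114F4.1, a transcript named after a genomic clone. Its reference transcript carries the name Gm42744 in GENCODE vM21, a long intergenic non-coding RNA on the minus strand of chromosome 5, 4784753 to 4799094 in mm10. It stood at 0.08, 0.06 and 0.07 FPKM at E12.5, then 55.5, 65.4 and 50.6 at E14.5 and finally 758, 858 and 620 at E16.5. The log2 fold change was 9.43 ± 0.14 (adjusted p = 2.71e-15), and 61.0% of it was made by E14.5. Nothing is annotated of its role in the sources used here.

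Protein-coding genes that were near 0 at E12.5 followed the same order of stages. Dnase2b, the acid DNase that degrades nuclear DNA in lens fibres (chromosome 3, 146580985 to 146615596), stood at 0.08, 0.29 and 0.58 FPKM at E12.5, then 55.9, 63.7 and 47.2 at E14.5 and finally 226, 275 and 183 at E16.5. Its log2 fold change was 7.44 ± 0.18 (adjusted p = 4.72e-13). Nlrc5, known elsewhere as an activator of MHC class I genes (chromosome 8, 94434356 to 94527272), went from 0.19, 0 and 0 FPKM through 40.4, 43.6 and 31.9 to 194, 221 and 150. That was a log2 fold change of 7.46 ± 0.16 (adjusted p = 2.95e-13). Libraries of the 3 stages did not overlap for either gene. Lctl, a lens-enriched relative of lactase also called gamma-Klotho (chromosome 9, 64117147 to 64138118), stood at 0.16, 0.18 and 0.44 FPKM at E12.5, then 18.9, 22.6 and 16.46 at E14.5 and finally 182, 195 and 129 at E16.5. It rose by 7.05 ± 0.17 (adjusted p = 5.37e-13), with 56.8% of the rise made by E14.5.

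Large Maf proteins are known activators of lens genes and bind sites built around the letters TGCTGA. The 250 bases before the start of Lctl are shown because they hold these letters 3 times (capitals, either strand), on the plus strand of chr9:64116897-64117146 (RefSeq, GRCm38.p6).
Lctl: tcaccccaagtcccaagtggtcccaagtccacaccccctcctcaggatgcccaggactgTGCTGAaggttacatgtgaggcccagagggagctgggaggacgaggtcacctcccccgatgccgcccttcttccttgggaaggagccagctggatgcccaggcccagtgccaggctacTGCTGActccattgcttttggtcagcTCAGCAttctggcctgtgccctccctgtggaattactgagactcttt
Of 32536 promoter windows of this length, 16.1% held TGCTGA on either strand and 0.148% held it at least 3 times. Among the 361 windows of early-rising genes with an entry, 21.3% held it, beside 13.7% of the 51 windows of late-rising genes. The share was 13.8% for undecided rises, 14.2% for early falls, 14.2% for undecided falls and 10% of 10 windows for late falls. A gene can have several windows, and a link of the letters to the course was not tested. These are matches of letters, not measured binding sites.

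Of all genes tested, 19 were under 1 FPKM in every E12.5 library and at least 10 FPKM in every E16.5 library. Besides those above they included Tmprss11e, a serine protease gene, at 44.6, 53.6 and 46.0 FPKM at E16.5 after 0, 0 and 0.07 at E12.5. Pappa, which encodes a protease of IGF-binding proteins, stood at 76.5, 101 and 63.6 FPKM after 0.39, 0.23 and 0.43. Stx11, a syntaxin of membrane fusion, reached 88.8, 116 and 68.1 FPKM from 0.57, 0.70 and 0.87. The adhesion-molecule genes Ceacam10 and Ceacam2 were listed at 0 in all 3 E12.5 libraries. At E16.5 Ceacam10 was at 56.3, 61.2 and 41.9 FPKM and Ceacam2 at 64.7, 66.6 and 43.3. These family members resemble each other, and the split of reads between them is uncertain. Rnf180, a ubiquitin ligase gene on chromosome 13, rose from 2.90, 3.33 and 2.57 FPKM to 248, 301 and 184 (log2 fold change 5.94 ± 0.16, adjusted p = 1.43e-12).

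A pair of neighbouring genes on chromosome 3 rose together, Lenep, a small lens epithelial protein gene, and Zbtb7b, a zinc-finger factor known for CD4 T-cell fate. Lenep stood at 5.37, 10.4 and 17.3 FPKM at E12.5 and at 706, 809 and 622 at E16.5 (log2 fold change 6.01 ± 0.32, adjusted p = 2.22e-09). Zbtb7b stood at 6.50, 5.49 and 8.02 FPKM at E12.5 and at 643, 779 and 594 at E16.5 (6.46 ± 0.15, adjusted p = 4.72e-13). The deposited table gives both the same locus, so the values of the pair may share reads.

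**Figure D2:**
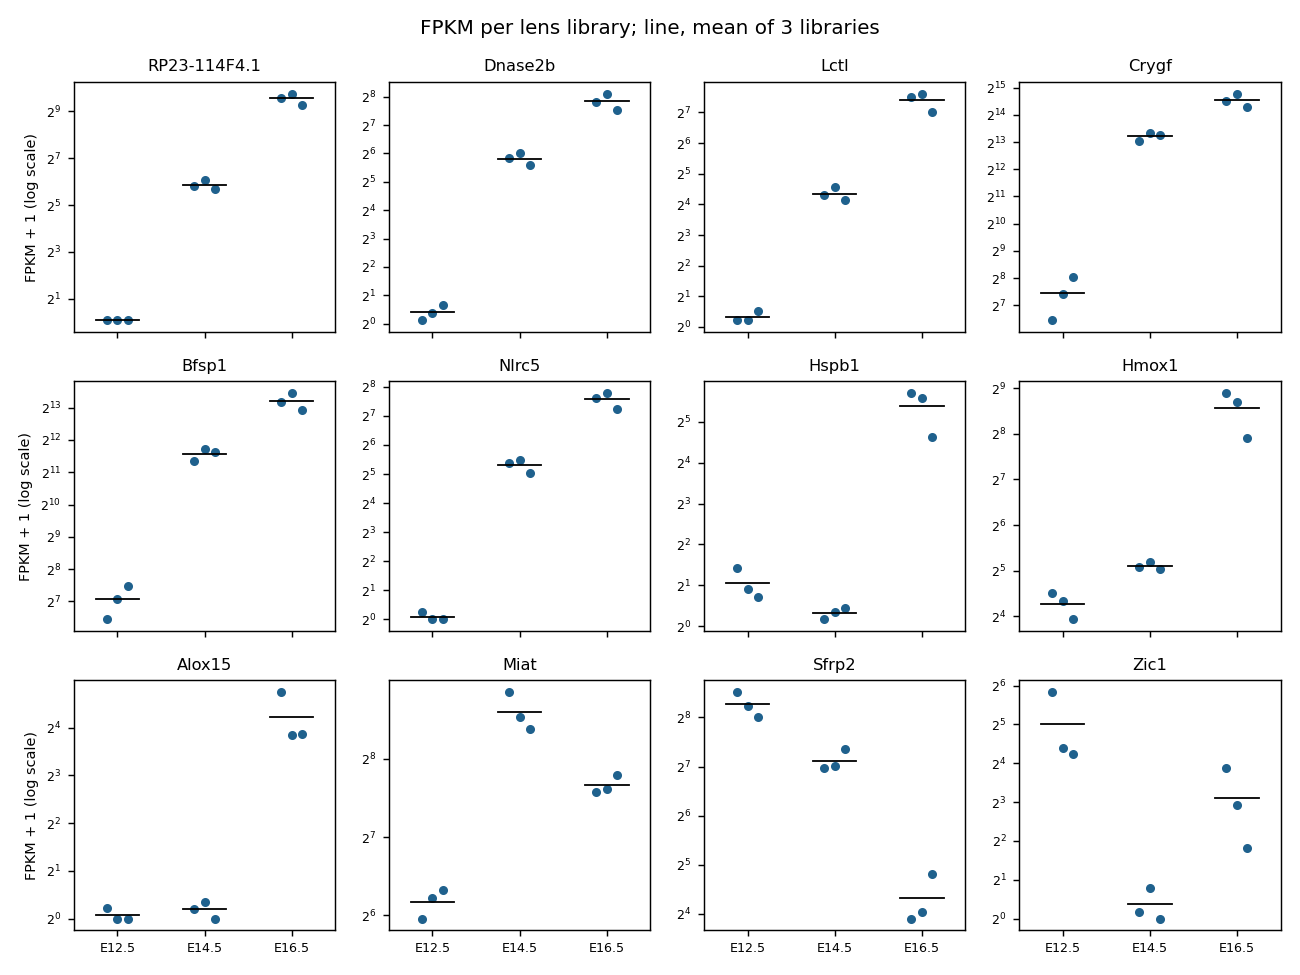
Points are FPKM + 1 per library on a log scale for 12 genes at the 3 stages, and lines are means of 3 libraries. RP23-114F4.1, Dnase2b, Lctl, Crygf, Bfsp1 and Nlrc5 rise over both steps, Hspb1, Hmox1 and Alox15 mainly after E14.5, Miat is highest at E14.5, Sfrp2 falls mainly after E14.5 and Zic1 is lowest at E14.5.

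All 14 crystallin genes tested were called higher at E16.5, each by at least 2-fold, with a median log2 fold change of 3.58 beside -0.03 over all genes. With quantile normalization, which forces the top values of all libraries to be equal, 12 of the 14 remained called. Crystallins are the refractive proteins of the lens, and the gamma group is typical of fibres. Within the group the rises differed in size. Crygf (chromosome 1, 65926520 to 65928307) went from 85.9, 169 and 261 FPKM through 8471, 10334 and 9766 to 23029, 28107 and 19827, a log2 fold change of 7.22 ± 0.27 (adjusted p = 6.44e-11). Crygb went from 314, 581 and 910 FPKM to 37858, 43916 and 32578 (6.10 ± 0.25, adjusted p = 1.73e-10). Both had made over 80% of the log2 change by E14.5, yet Crygf at E14.5 stood below every E16.5 library in FPKM. Crybb1, a beta-crystallin, rose from 4922, 8672 and 9907 FPKM to 46792, 56086 and 41902 (2.67 ± 0.20, adjusted p = 9.97e-08). Crygs, the gamma-like crystallin of later fibres, took steps of 1.80 and 1.96 and was not called early or late (midpoint deviation -0.08, adjusted p = 0.738). Gamma-crystallin genes are close copies of each other, and reads may be split between them.

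The 250 bases before Crygb and Crygf are shown since these genes had the highest rises of the family. Capitals mark the only run of at least 10 bases that aligned between the windows, GGGCCCCTTT. The windows are chr1:65082291-65082540 on the minus strand and chr1:65926272-65926521 on the plus strand (RefSeq, GRCm38.p6).
Crygb: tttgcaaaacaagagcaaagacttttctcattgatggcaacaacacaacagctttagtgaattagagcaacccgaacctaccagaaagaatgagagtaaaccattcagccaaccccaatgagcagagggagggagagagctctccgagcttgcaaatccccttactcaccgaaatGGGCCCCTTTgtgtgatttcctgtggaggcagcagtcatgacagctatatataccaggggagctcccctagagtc
Crygf: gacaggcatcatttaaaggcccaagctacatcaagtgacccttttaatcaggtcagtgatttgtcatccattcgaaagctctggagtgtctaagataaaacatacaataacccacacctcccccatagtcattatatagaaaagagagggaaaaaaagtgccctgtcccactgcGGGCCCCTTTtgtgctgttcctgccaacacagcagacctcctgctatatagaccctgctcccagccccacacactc
The run starts 75 bases before the annotated start of Crygb and 76 before that of Crygf. Of 8 gamma-crystallin genes with an entry, 4 held it on either strand (Crygb, Crygc, Cryge and Crygf), beside 0.0953% of all 32536 windows.

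Of 17 tested genes for the fibre membrane and its filaments, 14 were called higher and none lower. Under the crystallin-free scaling, 12 were higher and 2 lower. Bfsp1, the beaded-filament protein filensin (chromosome 2, 143826528 to 143863173), rose from 85.8, 133 and 178 FPKM through 2622, 3396 and 3151 to 9344, 11291 and 7753. Its log2 fold change was 6.19 ± 0.20 (adjusted p = 1.19e-11). Its partner Bfsp2, or phakinin, rose from 144, 221 and 276 FPKM to 4221, 4938 and 3517 (4.33 ± 0.20, adjusted p = 5.54e-10). Bfsp1 thus started below Bfsp2 at E12.5 and ended above it in FPKM, which is per length, and for both genes every E14.5 library lay between the other stages.

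The channel and junction genes rose less. Mip, the fibre water channel aquaporin 0, went from 1266, 1605 and 2556 FPKM through 6383, 6914 and 5030 to 6870, 8358 and 6830 (2.08 ± 0.19, adjusted p = 5.99e-07), and its second step of 0.27 was not called. Lim2, a fibre membrane protein, rose by 2.87 ± 0.16 (adjusted p = 4.17e-09). Gja3, or connexin 46, rose from 501, 578 and 796 FPKM to 1949, 2231 and 1920 (1.73 ± 0.17, adjusted p = 1.55e-06).

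In the membrane skeleton, the network of spectrin, ankyrin and actin under the fibre membrane, 19 of 30 tested genes were called higher and 9 lower. Add2, beta-adducin, rose from 125, 148 and 201 FPKM to 513, 571 and 473 (1.73 ± 0.18, adjusted p = 1.66e-06). Members that fell included Tpm4, a non-muscle tropomyosin, at -1.53 ± 0.18 (adjusted p = 5.23e-06), and Tmod3, the broadly expressed tropomodulin, at -1.13 ± 0.12 (adjusted p = 3.11e-06). Tmod1, the tropomodulin of fibres and red cells, went the other way, at 1.24 on the log2 scale.

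Genes listed for the loss of nuclei and organelles split into 12 of 26 higher and 10 lower, or 11 and 12 under the crystallin-free scaling. Higher were Dnase2b, above, and Pla2g16, a phospholipase of organelle membranes in lens fibres, which rose from 63.6, 93.3 and 114 FPKM to 974, 1171 and 945 (3.53 ± 0.15, adjusted p = 3.15e-10). Lower was Lmnb1, lamin B1 of the nuclear envelope, from 186, 161 and 140 FPKM to 68.8, 61.5 and 78.5 (-1.21 ± 0.12, adjusted p = 1.83e-06). The lamin, lamin-receptor and Cdk1 members of this list are also tied to dividing cells.

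Many genes of the degradation systems rose a little. Of 33 tested autophagy genes 21 were higher and 1 lower (median log2 fold change 0.52), of 33 lysosomal genes 23 were higher and 2 lower (0.44), and of 32 proteasome genes 21 were higher and none lower (0.33). Under the crystallin-free scaling, the counts became 17 higher and 10 lower for autophagy, 14 and 7 for lysosomal genes and 11 and 8 for the proteasome. Optn, an autophagy receptor, stood out with a rise from 9.09, 10.49 and 12.1 FPKM to 145, 163 and 131 (3.68 ± 0.14, adjusted p = 6.87e-11). The autophagosome gene Gabarapl1 rose by 1.73 ± 0.12 (adjusted p = 2.53e-08).

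A small set of genes made most of its rise after E14.5. Hspb1, the small heat shock protein Hsp25 (chromosome 5, 135887919 to 135889563), stood at 1.70, 0.88 and 0.64 FPKM at E12.5, then 0.12, 0.28 and 0.35 at E14.5 and finally 51.5, 47.1 and 23.9 at E16.5. The second step was 4.996 on the log2 scale (adjusted p = 5.21e-08), and the first, -0.70, was not called (adjusted p = 0.0555). Alox15, a lipoxygenase gene, was under 0.3 FPKM in all 6 earlier libraries and at 25.9, 13.3 and 13.6 at E16.5 (4.08 ± 0.20, adjusted p = 1.09e-09). Hmox1, the stress-inducible heme oxygenase, went from 21.7, 19.2 and 14.2 FPKM through 33.1, 35.5 and 31.6 to 477, 413 and 238, with 19.9% of its log2 change of 4.24 ± 0.20 made by E14.5 (adjusted p = 5.54e-10). E16.5 replicate 3 was the lowest of its stage for Hspb1 and Hmox1, and still above every E12.5 and E14.5 library. It was also the lowest for 66% of all genes at least 2-fold higher at E16.5, against 32.6% of all genes tested.

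Other late rises came from several functions. Fabp5, a fatty acid carrier, stood at 59.9, 47.6 and 39.2 FPKM at E12.5, then 70.3, 64.0 and 69.7 at E14.5 and finally 376, 433 and 232 at E16.5 (2.77 ± 0.18, adjusted p = 2.48e-08). Actn2, the alpha-actinin of striated muscle, went from 0.75, 0.96 and 1.45 FPKM through 3.42, 7.66 and 5.52 to 104, 127 and 64.5 (5.56 ± 0.37, adjusted p = 2.48e-08). Ank1, the red-cell ankyrin, first fell from 14.4, 6.24 and 4.77 FPKM to 2.56, 2.76 and 2.08 and then rose to 25.6, 31.9 and 19.7. The summed FPKM of erythroid markers was 8224, 4864 and 3733 at E12.5, then 973, 452 and 702 at E14.5 and finally 480, 349 and 675 at E16.5. At E12.5 most of this sum was the embryonic globin Hbb-y. The adult globin Hbb-bs stood at 215, 149 and 147 FPKM at E12.5 and at 388, 196 and 249 at E14.5. The part of red cells in the course of Ank1 was not tested. Id1, a target of BMP signalling, had an uncalled first step of -0.04 and then rose from 31.5, 25.6 and 24.9 FPKM to 82.4, 64.8 and 53.2.

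The promoter of Hspb1 is shown because its late rise was the steepest second step among the late genes named here. Capitals mark the letters GAANNTTC, which read the same on both strands and form the core of the heat shock element bound by heat shock factors. The window is chr5:135887669-135887918 on the plus strand (RefSeq, GRCm38.p6).
Hspb1: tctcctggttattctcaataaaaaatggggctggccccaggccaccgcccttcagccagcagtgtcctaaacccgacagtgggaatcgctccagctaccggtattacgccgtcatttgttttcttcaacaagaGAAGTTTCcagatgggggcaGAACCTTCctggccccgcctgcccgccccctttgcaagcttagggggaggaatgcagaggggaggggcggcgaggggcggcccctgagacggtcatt
The letters occur 2 times here, beside 0.227% of all windows with 2 or more matches and 6.72% with any. Hspb1 was the only one of the 40 late-rising genes with an entry whose window held them. Hsf4, the heat shock factor of the lens, rose early rather than late, from 43.3, 83.1 and 86.5 FPKM through 287, 316 and 319 to 397, 462 and 347.

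Of 29 tested chaperone genes, Hspb1 included, 16 were higher and 3 lower, or 9 and 10 under the crystallin-free scaling and 11 and 11 with quantile normalization. Dnajb1, an Hsp40 co-chaperone, rose mainly before E14.5, from 44.7, 47.8 and 43.3 FPKM to 213, 238 and 223 and then to 283, 364 and 273 (2.72 ± 0.10, adjusted p = 5.49e-11). Hspa1b, an inducible Hsp70 gene, fell from 8.09, 0.82 and 1.37 FPKM to 0, 0.45 and 0.63 (-1.35 ± 0.47, adjusted p = 0.0245), and the call was lost without E12.5 replicate 1 (-0.64, adjusted p = 0.118).

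Transcription factors that define the lens were called in both directions. Of 22 tested, 8 were higher, 5 lower and 9 not called (5 higher and 10 lower under the crystallin-free scaling). Over all genes tested, 25.8% were higher and 26.7% lower. Hsf4 was the only one of these factors higher by 2-fold, and 2 were lower by 2-fold. The 2-fold shares over all genes were 6.62% and 8.97%. Maf, the fibre factor c-Maf, went from 576, 750 and 906 FPKM to 1290, 1589 and 1373 (0.95 ± 0.14, adjusted p = 5.73e-05). Prox1, which is needed for fibre elongation, went from 553, 663 and 859 FPKM to 1067, 1151 and 1139 (0.72 ± 0.13, adjusted p = 0.000298), but was not called under quantile normalization. Pax6, the eye-field factor kept in the epithelium, moved from 378, 383 and 352 FPKM to 330, 303 and 322 (-0.22 ± 0.06, adjusted p = 0.0052). Foxe3, an epithelial factor, stood at 345, 451 and 393 FPKM at E12.5 and at 375, 356 and 423 at E16.5, and the groups overlapped (-0.04 ± 0.13, adjusted p = 0.843). Under the crystallin-free scaling, or with quantile normalization, Foxe3 was called lower. Gata3 and Sox2 were not called either, at -0.001 ± 0.18 and 0.06 ± 0.16.

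Larger falls on that list were Tfap2b, from 98.9, 40.9 and 31.1 FPKM to 0.61, 0.50 and 1.37, and Sox11, from 69.0, 44.8 and 32.3 to 6.11, 5.74 and 7.77. Tfap2b is also a gene of the periocular mesenchyme. Both genes were highest in E12.5 replicate 1, as were 85.2% of all genes at least 2-fold lower at E16.5. Of 12 tested epithelial genes, 6 were higher and 2 lower, or 5 and 4 under the crystallin-free scaling and 6 and 3 with quantile normalization. Wnt7b, a Wnt ligand, rose from 61.3, 91.3 and 107 FPKM to 614, 669 and 592 (2.87 ± 0.16, adjusted p = 4.72e-09), and Npnt, the matrix protein nephronectin, from 47.5, 49.3 and 60.5 to 125, 107 and 134 (1.21 ± 0.11, adjusted p = 4.28e-07).

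Genes of cell division fell over both steps. Of 28 tested DNA replication genes 27 were lower, with a median of -1.06 split into -0.51 and -0.53 over the 2 steps, and all 30 mitosis genes were lower, with a median of -1.09 split into -0.43 and -0.63. No fall of 2-fold or more on either list was called early or late. The same counts held under the crystallin-free scaling and with quantile normalization. Rrm2, a subunit of ribonucleotide reductase, went from 109, 87.3 and 82.4 FPKM through 55.3, 45.6 and 65.1 to 29.7, 25.3 and 33.4 (-1.62 ± 0.13, adjusted p = 1.33e-07). Mki67, the proliferation marker Ki-67, went from 304, 200 and 226 FPKM through 200, 162 and 235 to 119, 112 and 151 (-0.92 ± 0.16, adjusted p = 0.000193).

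The list for cell cycle exit had 7 of 25 genes higher and 12 lower. It holds cyclins and E2F factors beside the inhibitors of division, so its counts give no direction for exit itself. Cdkn1c, the p57 inhibitor of cyclin-dependent kinases and the main one of lens fibres, rose from 698, 919 and 935 FPKM to 1496, 1566 and 1579 (0.87 ± 0.12, adjusted p = 2.82e-05). Cdkn1a, or p21, fell from 10.2, 10.6 and 7.89 FPKM to 1.68, 0.71 and 0.01 (-2.65 ± 0.26, adjusted p = 1.24e-06). The growth-arrest gene Gadd45b rose from 1.63, 2.18 and 2.75 FPKM to 42.5, 51.8 and 36.5 (3.81 ± 0.18, adjusted p = 9.41e-10), and Gadd45g from 9.49, 15.7 and 19.8 to 70.6, 79.5 and 66.8.

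Nuclear RNA and chromatin genes fell with cell division. Of 44 tested splicing factors 33 were lower and none higher, of 33 chromatin and DNA methylation genes 19 were lower and none higher, and of 30 ribosome biogenesis genes 15 were lower and none higher. Hells, a helicase of DNA methylation, fell from 54.3, 41.2 and 43.5 FPKM to 16.4, 15.3 and 19.1 (-1.39 ± 0.10, adjusted p = 4.1e-08). Npm1, the nucleolar protein nucleophosmin, fell from 1211, 1142 and 1062 FPKM to 558, 590 and 675 (-0.91 ± 0.12, adjusted p = 1.56e-05). For cytosolic ribosomal proteins the direction hung on the scaling, with 24 of 78 higher and none lower in the main analysis, 1 higher and 34 lower under the crystallin-free scaling, and 1 and 51 with quantile normalization. Translation factors likewise went from 23 of 41 higher and 1 lower to 11 and 13, and to 8 and 16. Eif5b, which joins the ribosomal subunits, was the only one of that list at least 2-fold higher, at 173, 182 and 214 FPKM at E12.5 and 1506, 1716 and 1284 at E16.5 (2.97 ± 0.11, adjusted p = 6.71e-11).

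Energy metabolism rose. Of 69 tested nuclear genes of the respiratory chain 60 were higher and 2 lower, with a median log2 fold change of 0.57, of which 0.49 came in the first step. Under the crystallin-free scaling the counts were 38 and 7. Ndufa1, a subunit of complex I, rose from 167, 203 and 199 FPKM to 473, 551 and 498 (1.42 ± 0.11, adjusted p = 1.48e-07). The 2 that fell, Sdhc and Sdhd, both belong to complex II and moved by -0.46 and -0.22. None of 8 mitochondrially encoded genes was called between E12.5 and E16.5. Their summed FPKM was 42759 in E14.5 replicate 1, beside 25581 and 24873 in the other E14.5 libraries, 19049 to 21666 at E12.5 and 25036 to 27738 at E16.5.

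Of 22 glycolysis genes 16 were higher and 3 lower, and of 21 genes of the hypoxia response 16 were higher and 1 lower. Under the crystallin-free scaling the counts became 14 and 5 for glycolysis and 13 and 4 for the hypoxia response. With quantile normalization they were 10 and 3, and 16 and 1. Pgam2, the muscle form of phosphoglycerate mutase, rose from 24.6, 45.3 and 55.3 FPKM to 520, 581 and 443 (3.66 ± 0.23, adjusted p = 1.17e-08). Aldoc, aldolase C, took even steps, from 15.3, 21.0 and 22.2 FPKM through 38.0, 43.3 and 50.8 to 127, 118 and 88.4. Ldhb, lactate dehydrogenase B, fell from 40.2, 30.1 and 19.7 FPKM to 5.65, 4.17 and 4.31 (-2.39 ± 0.21, adjusted p = 4.89e-07). Ndrg1, induced by low oxygen, rose from 7.46, 13.3 and 18.7 FPKM to 327, 333 and 260 (4.52 ± 0.34, adjusted p = 9.97e-08). Slc2a1, the glucose transporter GLUT1, moved from 657, 682 and 787 FPKM to 1002, 933 and 1042 (0.49 ± 0.09, adjusted p = 0.000334), a call lost under the crystallin-free scaling or with quantile normalization.

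The lists of this paragraph stand beside 25.8% higher and 26.7% lower over all genes tested, and several lie near these shares. Antioxidant genes were mixed, with 15 of 42 higher and 11 lower, or 11 and 21 under the crystallin-free scaling. Gstm1, a glutathione transferase of a large family, rose from 34.1, 45.2 and 44.4 FPKM to 290.5, 214 and 211 (2.498 ± 0.16, adjusted p = 1.63e-08), and Mgst3, a microsomal one, fell from 13.5, 8.42 and 6.80 to 2.74, 2.59 and 1.58. Cholesterol synthesis had 12 of 22 higher and 4 lower, or 8 and 8 under the crystallin-free scaling. Lss, the lanosterol synthase mutated in some cataracts, rose from 48.2, 57.8 and 72.9 FPKM to 116, 122 and 120 (1.01 ± 0.11, adjusted p = 2.6e-06). Lipid handling had 7 of 30 higher and 9 lower, or 4 and 15 under the crystallin-free scaling. Scd1, a fatty acid desaturase, fell from 28.1, 24.7 and 25.03 FPKM to 9.06, 7.32 and 6.83 (-1.63 ± 0.14, adjusted p = 2.81e-07). The unfolded protein response had 7 of 21 genes called each way, or 4 higher and 10 lower under the crystallin-free scaling.

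**Figure D3:**
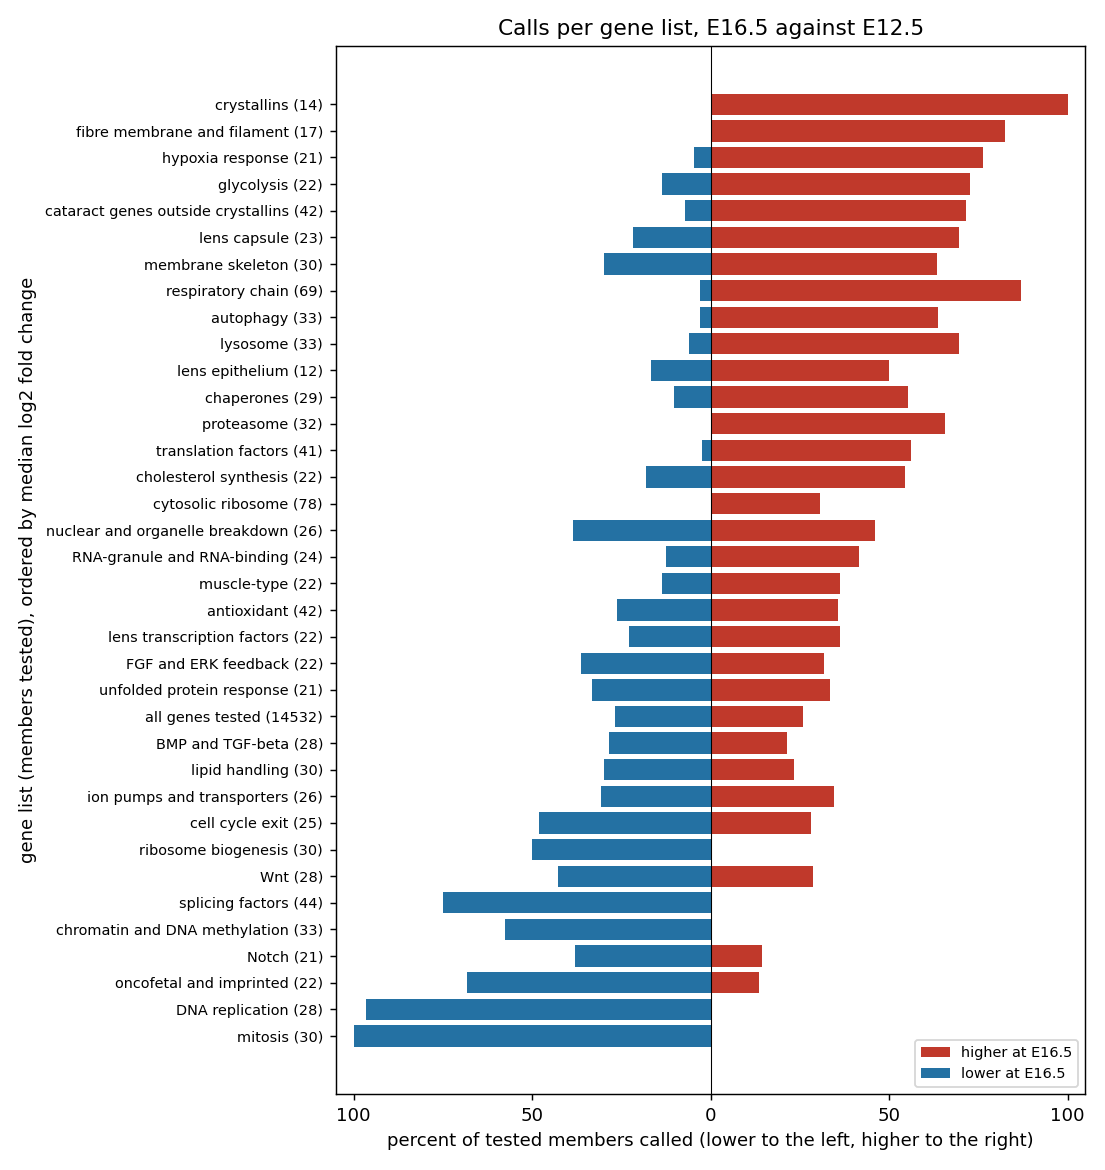
Bars give the percent of tested members of each gene list called higher (right) or lower (left) at E16.5 against E12.5, with the number tested in brackets and the lists ordered by median log2 fold change. All 14 crystallins lie on the right and all 30 mitosis genes on the left, beside 25.8% higher and 26.7% lower over all genes tested.

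In the signalling lists genes were called in both directions, beside 25.8% higher and 26.7% lower over all genes tested. More were lower under the crystallin-free scaling, which shifted the median of all genes by -0.27. That increase is therefore not particular to these lists. For FGF, the main fibre-inducing signal, 7 of 22 genes were higher and 8 lower, or 4 and 11 under that scaling. The receptor Fgfr3 rose from 90.1, 115 and 156 FPKM to 518, 572 and 500 (2.17 ± 0.21, adjusted p = 1.03e-06), and Dusp4, an ERK phosphatase, from 11.8, 12.2 and 11.1 to 40.0, 48.8 and 40.9 (1.79 ± 0.09, adjusted p = 2.17e-09). Il17rd, a feedback inhibitor also called Sef, fell from 18.4, 10.96 and 7.24 FPKM to 3.48, 1.80 and 2.10 (-1.87 ± 0.26, adjusted p = 3.01e-05). The BMP and TGF-beta list had 6 of 28 genes higher and 8 lower, or 3 and 16. Its ligand Tgfb1 fell from 17.1, 13.8 and 8.97 FPKM to 3.27, 0.70 and 2.83 (-2.19 ± 0.36, adjusted p = 0.000133).

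For Notch, 3 of 21 genes were higher and 8 lower, or 2 and 16 under the crystallin-free scaling. The ligand Jag1 rose from 314, 306 and 389 FPKM to 532, 589 and 578 (0.76 ± 0.10, adjusted p = 1.49e-05). The receptor Notch4, known from blood vessels, fell from 30.0, 19.2 and 13.6 FPKM to 8.26, 4.89 and 8.53, and the summed endothelial markers fell with it, from 501, 267 and 252 FPKM to 128, 76.0 and 137. Their part in the fall was not tested. For Wnt, 8 of 28 were higher and 12 lower, or 5 and 17. Wnt7a, a ligand, rose mainly before E14.5 (89.7% of the log2 change), from 2.57, 3.18 and 7.24 FPKM to 124, 151 and 120.5 and then to 179, 222 and 178 (5.28 ± 0.25, adjusted p = 7.35e-10). The secreted inhibitor Sfrp2 did the reverse (chromosome 3, 83766321 to 83774316), going from 367, 299 and 256 FPKM through 124, 129 and 162 to 14.01, 15.5 and 27.2. The first step was -1.14 and the second -2.85 (adjusted p over both = 7.46e-10).

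Few falls were called late, 9 in all, and between 4 and 13 when single libraries were left out. Gm26771 went from 44.6, 39.6 and 36.8 FPKM through 16.2, 16.1 and 24.7 to 1.05, 1.13 and 3.36. The table gives it the locus of Sfrp2, so reads of the pair may not be told apart. The proto-oncogene Myc stood at 32.6, 32.3 and 22.5 FPKM at E12.5, then 22.9, 18.3 and 28.6 at E14.5 and finally 6.73, 7.31 and 9.09 at E16.5 (-1.78 ± 0.16, adjusted p = 6.41e-07). Adnp, a chromatin-associated homeobox protein gene, had an uncalled first step of 0.04 and then fell from 23.6, 20.6 and 18.2 FPKM to 6.09, 8.33 and 6.38. Libraries at E16.5 were below all others for each of these genes.

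The lens capsule, the basement membrane around the lens, had 16 of 23 genes higher and 5 lower, or 10 and 5 under the crystallin-free scaling. The collagen IV chain genes Col4a3 and Col4a4 were low at every stage. Col4a4 stood at 0.47, 0.18 and 0.22 FPKM at E12.5, then 1.08, 0.74 and 0.35 at E14.5 and finally 8.32, 5.86 and 3.26 at E16.5 (2.34 ± 0.23, adjusted p = 1.46e-06). Falls came from Nid2, or nidogen 2, at 104, 58.5 and 55.3 FPKM at E12.5 and 18.96, 13.3 and 22.8 at E16.5, and from Lama4, a laminin chain of vessels, at 99.2, 46.1 and 41.0 and then 15.6, 8.98 and 17.4. Among the E12.5 libraries both were highest in replicate 1, as were the summed endothelial markers and 85.2% of all genes at least 2-fold lower at E16.5. That set of genes was itself picked with the E12.5 values, so its share cannot tell whether the order is particular to vessel genes. The part of vessels in these falls was not tested.

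RNA-binding genes had 10 of 24 higher and 3 lower, but 5 and 12 under the crystallin-free scaling and 6 and 12 with quantile normalization. Caprin2 rose from 276, 411 and 560 FPKM to 2749, 3093 and 2461 (2.79 ± 0.18, adjusted p = 2.03e-08), and Tdrd7, a granule protein mutated in human cataract, from 323, 454 and 640 to 2548, 2981 and 2395 (2.53 ± 0.18, adjusted p = 4.1e-08). Zfp36l1, which speeds the decay of mRNAs, fell from 51.4, 38.6 and 23.4 FPKM to 6.76, 3.94 and 2.94 (-2.80 ± 0.30, adjusted p = 2.86e-06). Of 42 cataract genes other than crystallins, 30 were higher and 3 lower, and this list shares members with the fibre list.

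Among ion pumps and transporters 9 of 26 were higher and 8 lower, or 5 and 15 under the crystallin-free scaling. The main counts lie near the shares over all genes tested, 25.8% higher and 26.7% lower. The amino acid carrier Slc7a8 rose from 45.2, 36.0 and 45.2 FPKM to 208, 184 and 217 (2.25 ± 0.16, adjusted p = 4.74e-08), and Atp2b4, a plasma membrane calcium pump, fell from 22.8, 9.49 and 8.51 to 3.47, 1.03 and 2.10. Of 22 genes typical of striated muscle, 8 were higher and 3 lower, with Actn2 and Pgam2, above, at the top and Des, or desmin, going from 4.90, 3.20 and 2.97 FPKM to 0, 0.01 and 0.14.

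Genes typical of early embryonic growth fell, with 15 of 22 oncofetal and imprinted genes lower and 3 higher. Trim71, the let-7 target Lin41 (log2 fold change -4.06 ± 0.18, adjusted p = 4.86e-10), went from 22.2, 17.4 and 18.0 FPKM through 3.01, 1.76 and 3.83 to 0.10, 0.22 and 0.31. All E14.5 libraries lay between those of the other stages. Peg10, an imprinted retrotransposon-derived gene, fell from 190, 104 and 89.2 FPKM to 17.5, 7.29 and 16.48 (-3.13 ± 0.29, adjusted p = 6.51e-07). Snrpn, also imprinted, rose from 50.9, 64.5 and 74.0 FPKM to 152, 164 and 143 (1.28 ± 0.11, adjusted p = 2.51e-07).

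The steepest falls were in genes of blood and of tissue around the lens. Hbb-y, an embryonic globin, went from 4453, 2691 and 2174 FPKM through 136, 46.4 and 93.4 to 1.16, 1.80 and 2.63 (-10.05 ± 0.38, adjusted p = 6.71e-11), and Hba-x from 1407, 775 and 466 to 1.06, 0.90 and 1.37 (-8.57 ± 0.43, adjusted p = 1.47e-09). Of 12 erythroid genes 11 were lower. They included the adult globins Hba-a1, from 764, 513 and 403 FPKM to 90.3, 60.8 and 128, Hba-a2 and Hbb-bt, with log2 fold changes of -2.59, -2.10 and -1.41. The remaining one, the adult globin Hbb-bs, was not called, at 215, 149 and 147 FPKM at E12.5 and 256, 188 and 341 at E16.5. In the mesenchyme list 11 of 13 genes were lower, led by the collagen gene Col3a1, from 436, 168 and 126 FPKM to 4.84, 1.10 and 5.46 (-5.62 ± 0.73, adjusted p = 1.73e-05), and the lumican gene Lum, from 88.3, 43.6 and 26.8 to 0.32, 0 and 0.53. All 13 macrophage genes were lower, with sums from 219, 154 and 113 FPKM to 18.5, 8.46 and 17.8. Of 11 endothelial genes 8 were lower. Surface epithelium markers, of which 4 of 9 were lower, were highest in E12.5 replicate 2, at a sum of 51.5 FPKM beside 19.05 and 17.4.

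Rgs5, a pericyte gene, rose while 3 of the other 5 pericyte markers fell. It stood at 3.27, 2.94 and 3.76 FPKM at E12.5, then 23.7, 8.35 and 12.7 at E14.5 and finally 48.2, 20.8 and 42.5 at E16.5 (3.06 ± 0.32, adjusted p = 2.3e-06). In both later stages it was lowest in replicate 2, the library with the lowest endothelial sum of its stage. Liver markers were near 0 in all 9 lens libraries, with sums of 0.50 to 2.29 FPKM and none of 6 genes called.

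Some genes dipped at E14.5 and partly came back. Zic1, a zinc-finger factor, went from 56.3, 20.02 and 18.0 FPKM through 0.12, 0.74 and 0 to 13.8, 6.63 and 2.52, and Mab21l2 from 60.4, 23.5 and 19.5 through 0.84, 0.74 and 0.26 to 16.4, 9.69 and 3.05. Col2a1, collagen II, stood at 79.8, 120 and 32.7 FPKM, then at 0.84, 1.21 and 0.39, and then at 10.8, 6.02 and 2.63. Zic1 and Mab21l2 were highest in replicate 1 of E12.5 and Col2a1 in replicate 2, and all 3 were highest in replicate 1 and lowest in replicate 3 at E16.5. Of 11 neural retina markers 8 were lower at E16.5 than at E12.5 and 1 was higher. Their summed level had that order too, at 29.4, 21.6 and 13.1 FPKM, after 9.27, 7.24 and 6.77 at E14.5 and 167, 98.7 and 60.1 at E12.5. Whether the dip lies in the lens or in the retina list's cells was not tested. Across all genes, 396 had every E14.5 library below all libraries of both other stages, and 313 of these had a called deviation from the midpoint.

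**Figure D4:**
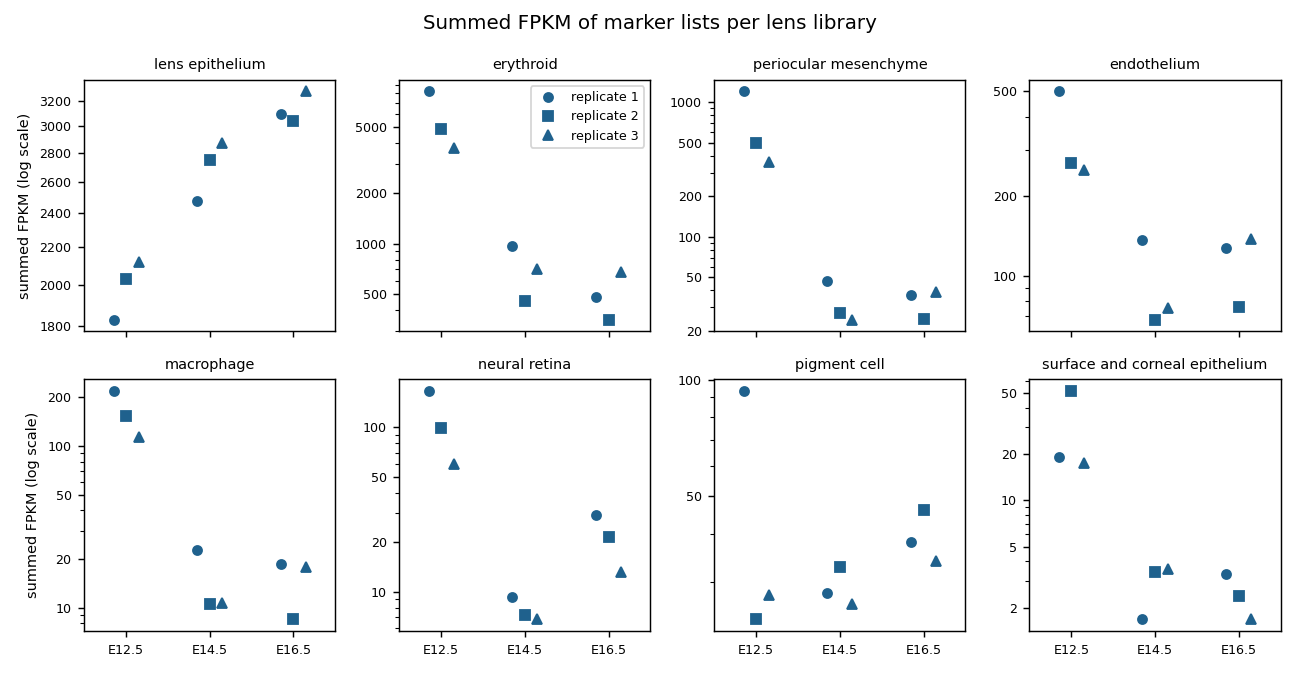
Points are the summed FPKM of a marker list in 1 library, on a log scale, with a symbol for each replicate number. The lists of blood, mesenchyme, vessel, macrophage and retina fall from E12.5 to E14.5, and E12.5 replicate 1 is the highest of its stage in these 5. The sum of the lens epithelium list rises, and its members include Wnt7b, whose own FPKM rose steeply.

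The opposite shape, with every E14.5 library above all others, was found in 294 genes, of which 192 had a called deviation. Miat, a long non-coding RNA (61.3, 73.9 and 78.8 FPKM at E12.5), reached 462, 370 and 332 at E14.5 and stood at 190, 195 and 221 at E16.5, and its second step of -0.93 was called (adjusted p = 0.00155). Fam46b went from 0.54, 0.24 and 0.36 FPKM to 10.47, 14.4 and 12.2 and back to 5.27, 5.41 and 6.31, with a called second step of -0.995. Myh7b, a slow muscle-type myosin gene, stood at 7.74, 19.7 and 27.8 FPKM, then at 162, 149 and 155, and then at 106, 104.8 and 101. Its second step of -0.57 was not called (adjusted p = 0.285), so a fall after E14.5 was not shown for this gene.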

How the data were processed

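The authors deposited FPKM for each transcript of their assembly. Per the submitters' processing notes, the tools were Cufflinks, Cuffnorm, TopHat2 2.0.9 and Trimmomatic, with mm10 as the genome. The order and settings of these steps and the read depth are not given in the sources used here. Gene values were sums of FPKM per symbol over 48306 transcripts, without 172 that overlap an exon on the other strand (class x). Genes with at least 1 FPKM in 3 of 15 libraries were kept, and Cryaa, Cryba1 and Nufip2, listed at 0 beside a replicate of at least 50 FPKM, were left out, leaving 14532. In 33 kept genes, 39 transcripts were at 0 in this way. limma 3.58.1 in R 4.3.3 was fitted to log2(FPKM + 1), with 5 group means, no block and a trended prior. In simulated data with 14532 genes, 96% of 2-fold changes between E12.5 and E16.5 at 10 FPKM or more were recovered, 62% at 1 to 10 FPKM, and 7 unchanged genes were called. No list was tested as a set. The gene lists and the comparison were chosen with earlier results of these data known. Named genes were the 10 highest rises and the 10 lowest falls with at least 10 FPKM and no overlap, up to 2 called members from each end of a list, the 5 clearest of each course and shape, and a fixed set; other members and genes under 1 FPKM at one end were chosen after their values were seen. Coordinates are from GENCODE vM21. Promoters are from RefSeq (GRCm38.p6), which held 10351 of the genes tested under their symbol. Figures used matplotlib 3.10.9 and pandas 2.3.3 in Python 3.11.15. A few further named genes were left out of the text, the figures and the count of named genes.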

Additional observations from a re-analysis of the deposited data

Results flagged for a closer look

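Class x transcripts lie over a gene's exon on its opposite strand and entered no comparison. Their summed FPKM was 705.1 ± 62.3 at E12.5, then 2470 ± 395 at E14.5 and finally 4080 ± 660 at E16.5 (SD, n = 3), and every library of both later stages lay above the 1118 FPKM of the highest whole-embryo library. At E16.5 a single transcript, filed under Filip1l, held 65% of this sum. It stood at 247, 95.7 and 181 FPKM at E12.5, then 1013, 1823 and 1695 at E14.5 and finally 2324, 3292 and 2336 at E16.5. Transcripts filed under Tacc2 were listed at 0 in all E12.5 libraries, and the highest of them was at 110, 123 and 104 FPKM at E16.5. No label states whether strand was used, so the strand of these transcripts rests on the authors' assembly.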

How the results depend on the processing

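With a 1.5-fold minimum, 2050 genes were higher and 2326 lower at E16.5 against E12.5, 1366 and 1983 at E14.5 against E12.5, and 488 and 215 at E16.5 against E14.5, and 609 rises were early. A fit of the 9 lens libraries of these stages gave 27 genes lower between E14.5 and E16.5, 234 early and 37 late rises, and 292 early and 1 late falls. The crystallin-free scaling gave 263 early rises, quantile normalization gave 33 late rises, and a pseudocount of 0.1 gave 90 genes lower between E14.5 and E16.5. Leaving out single libraries gave 249 to 548 early rises, 45 to 70 late rises, 397 to 897 early falls and 4 to 13 late falls. The cause of these shifts was not tested. Higher calls made up 42.5% of the 2-fold calls, 25.6% under the crystallin-free scaling and 49.2% with quantile normalization. Replicate numbers did not pair the samples (same-number r from -0.0946 to 0.237), and a replicate block gave 968 higher and 1301 lower. The unknown depth limits what can be said of genes near 1 FPKM.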

Other observations

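Some transcript forms were near 0 at E12.5 in genes already active then. Among 48044 transcripts of the tested genes, 19 in 14 genes were under 1 FPKM in every E12.5 library and at least 20 FPKM in every E16.5 library, although their gene had at least 10 FPKM at E12.5. These limits were chosen after the values were seen. Of the 19, 14 were forms that the authors' assembly joined differently from the annotation. Flad1, the FAD synthase gene, had such a form listed at 0 in all E12.5 libraries, then 162, 170 and 211 FPKM at E14.5 and finally 452, 561 and 384 at E16.5. Eif5b had a pair, the first at 0, 0.60 and 0.26 FPKM and then at 347, 403 and 285, the second listed at 0 and then at 318, 397 and 255. In Ube2o, a ubiquitin enzyme of red-cell remodelling, a form listed at 0 at E12.5 stood at 71.3, 85.3 and 27.5 FPKM at E16.5. Only 2 forms disappeared by the mirrored limits, in Nhs and Spag9. FPKM of a single form depends on how the authors' assembly shared reads between forms.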
